A study of Mus musculus with 12 samples.

Results

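The effect of topotecan was examined in cortical neuron cultures from which most Top1 mRNA had been removed by CRE. The comparison used the 6 Top1 cKO libraries out of 12 in the series, chosen by their labels: 3 from Top1 cKO-Topot and 3 from Top1 cKO-Veh cultures, numbered 1 to 3 in each group. Cortical cells came from C57BL6 embryos at E13.5 to E15.5. At 3 days in vitro (DIV) they were infected with a lentivirus whose CaMKIIα promoter drives tdTomato together with CRE (Top1 cKO) or tdTomato without CRE (WT), and by the study's account both genotypes are Top1 fl/fl. At DIV 15 they received 300 nM topotecan (Topot) or 0.003% DMSO (Veh), and RNA was taken 3 days later. The study puts transduction at 85 to 90%, and a CaMKIIα promoter is active in neurons, so uninfected neurons and the other cells of the culture, astrocytes among them, may keep Top1, whose level by cell type was not measured. The 6 WT libraries, 3 WT-Veh and 3 WT-Topot, served to test whether the effect of the drug differed between the genotypes.

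TOP1 relaxes the supercoils that build up around a moving RNA polymerase by cutting a DNA strand, letting it turn and closing it again. Topotecan binds TOP1 while the strand is cut and holds the enzyme on the DNA as a TOP1 cleavage complex (TOP1cc). Long genes, many of which encode synaptic proteins in neurons, are known to be the most sensitive to this drug. The comparison asks how much of the response is left when little of the drug's target is present.

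The LoxP sites flank exon 3 of Top1 (chr2:160471624-160548500, NCBIM37, the assembly that mm9 names). That exon is printed here because its loss defines the cells compared. In the GENCODE vM1 transcript it lies at chr2:160495836-160495938 on the plus strand, is 103 bases long and so holds 1 base more than whole codons:

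Top1 exon 3: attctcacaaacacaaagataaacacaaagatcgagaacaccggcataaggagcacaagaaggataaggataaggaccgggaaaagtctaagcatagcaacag

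Without it the reading frame of the 767-residue protein would end after 69 codons, the first 19 as in the full protein. Top1 mRNA, counted over all exons, was 30.1, 44.0 and 27.1 CPM (counts scaled to library size) in Top1 cKO-Veh replicates 1, 2 and 3 and 29.1, 37.5 and 28.4 CPM in Top1 cKO-Topot. The WT groups had means of 135 CPM (WT-Veh) and 133 CPM (WT-Topot). The 2 Top1 cKO groups overlapped, and topotecan did not move the residual level detectably (log2 fold change −0.09 ± 0.25 SE, adjusted p = 1).

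The Top1 cKO libraries held 1991007 to 4583777 counts, so 3 counts correspond to 0.687 to 1.503 CPM. Of 23893 genes in the table, 6036 had no count in these 6 libraries and 13625 averaged 1 CPM or more. A gene was called at a false discovery rate (FDR) of 0.01 in edgeR's quasi-likelihood test. Libraries with the same replicate number deviated together. The number accounted for 57.1% of the variance among the 6 libraries, topotecan for 20.6%, and 22.3% was left. Noise alone gives both factors a share, and none was subtracted, so the 20.6% does not measure the drug effect. Because libraries of a number deviated together, fits without and with a block for the replicate number are both given. Without it, 2 genes passed, Cadm2 and Syt1, both lower (0.0147% of the genes averaging 1 CPM or more), and at an unadjusted p of 0.05 there were 627 lower and 404 higher genes. With it, 415 genes were lower (3.05%) and 205 higher (1.5%). Apart from these 2 genes, calls below rest on the fit with the block unless a sentence says otherwise. No source says what a replicate number stands for, nor that the numbered cultures came from separate animals, so the p-values measure the spread between these cultures.

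The 2 genes that passed without the block encode proteins of synaptic adhesion and release, and both span long stretches of the genome. Cadm2, a cell adhesion protein of synapses and axons (chr16:66655666-67621153), was at 404, 352 and 256 CPM in Top1 cKO-Veh and at 55.8, 87.7 and 76.5 CPM in Top1 cKO-Topot. Its log2 fold change was −2.19 ± 0.21 without the block (adjusted p = 0.000347) and −2.18 with it, which is 0.221 of the vehicle level. Syt1, the calcium sensor of synaptic vesicle release (chr10:107934706-108448038), went from 1194, 1077 and 832 CPM to 422, 404 and 389 CPM (log2 fold change without the block −1.34 ± 0.16, adjusted p = 0.00324). For both genes every topotecan library lay below every vehicle library, and the drop was seen within each replicate number. In WT cultures the group means of both genes started higher and ended lower, from 717 to 37.5 CPM for Cadm2 and from 1706 to 284 CPM for Syt1. The difference between the genotypes in the effect of the drug was 2.06 ± 0.22 (adjusted p = 1.71e-09) for Cadm2 and 1.24 ± 0.15 (adjusted p = 4.39e-08) for Syt1, both from the fit with the block.

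**Figure D1:**
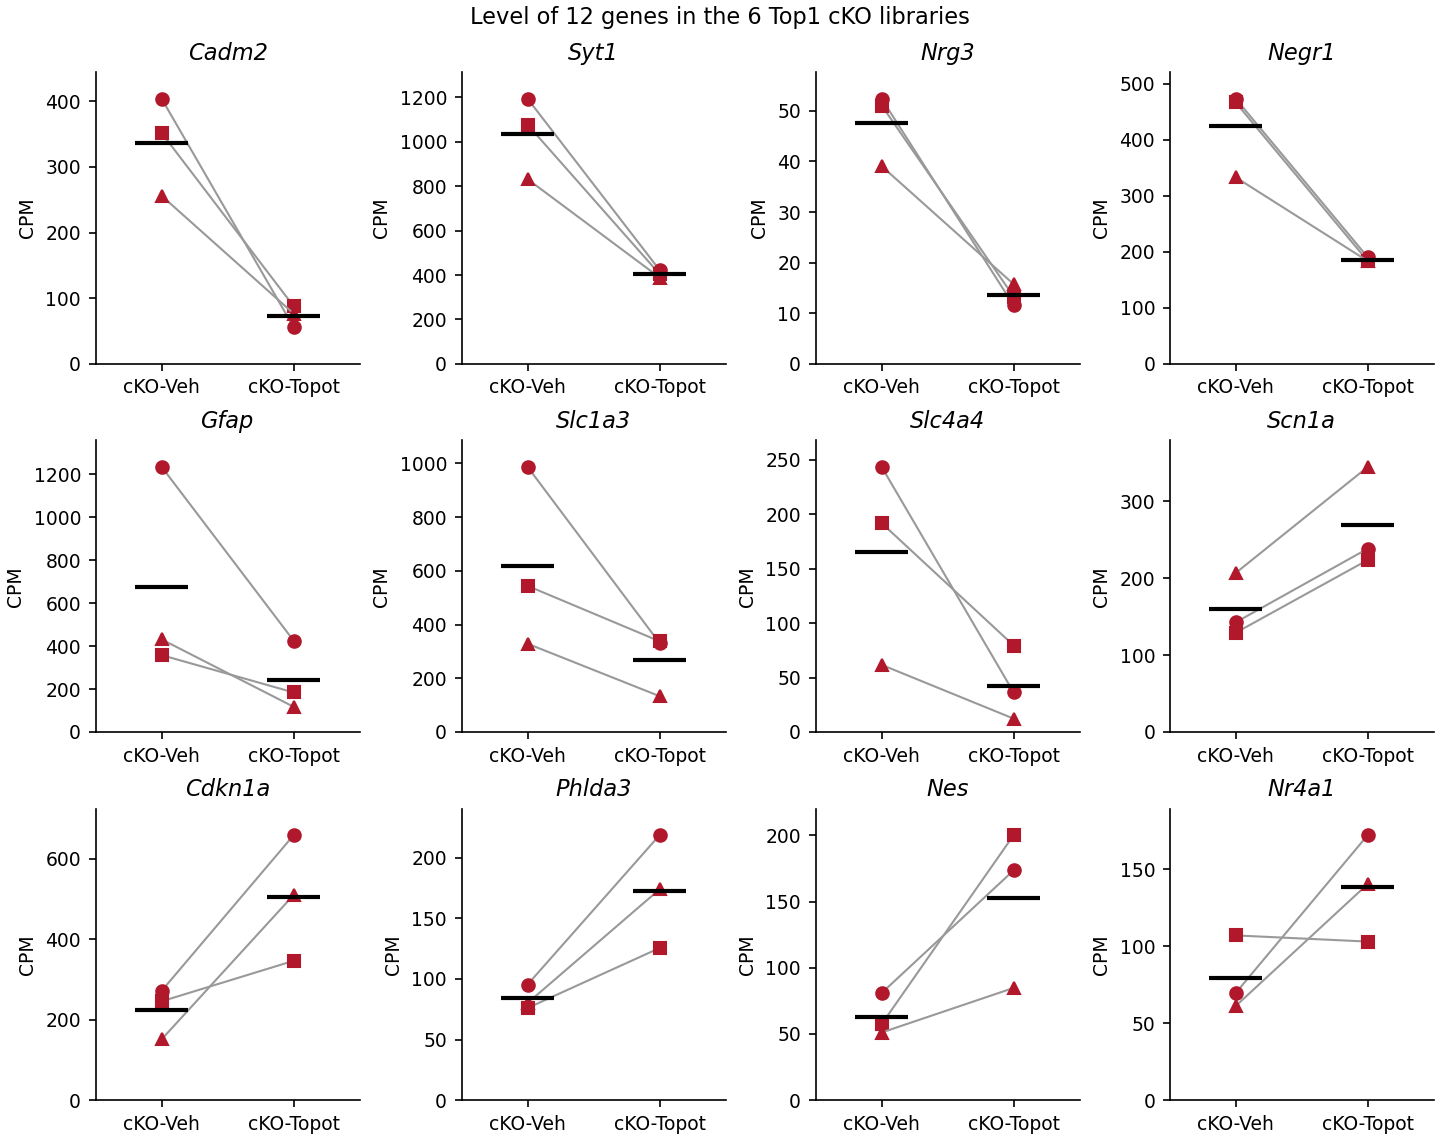
Level in CPM (vertical axes, from 0) of 12 genes in the 3 Top1 cKO-Veh and 3 Top1 cKO-Topot libraries; grey lines join libraries with the same replicate number (circle 1, square 2, triangle 3) and black bars are group means. Cadm2, Syt1, Nrg3 and Negr1 were lower in every topotecan library than in any vehicle library, Cdkn1a, Phlda3, Nes and Scn1a were higher in every one, and Gfap, Slc1a3, Slc4a4 and Nr4a1 overlapped between the groups.

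Of the 58 synaptic adhesion genes with at least 1 CPM (of 59 listed), 25 were lower, 0 were higher and the rest did not pass, against 3.05% and 1.5% of all such genes. Their median log2 fold change was −0.37, and for 33 of them the groups did not overlap, which held for 11.7% of all genes. Medians of lists and of length classes are from the fit without the block unless stated. Negr1, a GPI-anchored adhesion protein of the IgLON family, went from 474, 467 and 333 CPM to 190, 184 and 184 CPM (log2 fold change with the block −1.17 ± 0.09, adjusted p = 1.95e-27). Opcml, another IgLON, went from 287, 308 and 182 CPM to 105, 107 and 97.9 CPM. Vehicle replicate 3 was the lowest of its group in both, whereas the topotecan libraries lay within a narrow range.

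Nrxn3 and Nlgn1 were among the called members. Nrxn3, a presynaptic organiser, was at 140, 123 and 97.7 CPM in vehicle and 47.8, 55.1 and 52.5 CPM in topotecan libraries (adjusted p = 1.41e-14 with the block). Nlgn1, a postsynaptic neurexin ligand, went from 79.0, 80.4 and 49.6 CPM to 21.9, 35.2 and 36.3 CPM. Neither gene showed overlap between the groups. Cadm4 and Pcdh10 were the called members under 100 kb, with log2 fold changes of −0.40 and −0.32. The count of called adhesion genes was 16 to 25 over 9 fits with a block, including those without a replicate number, and its direction was the same in each.

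Glutamate receptor subunits followed, with 10 of 23 lower and 0 higher, against 3.05% and 1.5% of all genes, and a median of −0.44. Grm5, a group I metabotropic receptor, went from 182, 242 and 144 CPM to 53.4, 102 and 67.3 CPM (log2 fold change with the block −1.35 ± 0.12, adjusted p = 6.88e-23). Grm7, a presynaptic receptor, went from 46.5, 48.5 and 33.6 CPM to 11.2, 17.6 and 14.9 CPM. The AMPA receptor subunits Gria1, Gria2, Gria3 and Gria4 were all lower, with Gria4 falling most (93.1, 128 and 155 CPM to 34.3, 66.8 and 59.0 CPM). Of the NMDA receptor subunits Grin2b was lower, although vehicle replicate 3 (51.6 CPM) lay below topotecan replicates 1 and 2 (57.8 and 57.1 CPM). The count fell to 4 when weakly expressed genes were filtered out before the blocked fit and to 4 in DESeq2 with the block.

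Among 43 genes of the vesicle release machinery 8 were lower and 2 higher, against 3.05% and 1.5% of all genes. The counts were 5 to 9 and 0 to 3 over 9 fits with a block. The median was −0.06. Nbea, a protein of vesicle and receptor trafficking, went from 206, 234 and 158 CPM to 74.1, 90.3 and 62.1 CPM, and Erc2, an active zone scaffold, from 183, 181 and 150 CPM to 87.6, 87.0 and 68.6 CPM. Pclo, Rims1, Cadps, Stxbp5l, Synpr and Syt1 were the other lower members. Vamp1 (log2 fold change 0.41) and Slc17a6, the vesicular glutamate transporter VGLUT2 (0.61), were higher, and neither spans over 100 kb. Synpr, a synaptic vesicle membrane protein, differed from the others in WT: it went from 97.0, 107 and 144 CPM to 35.8, 52.1 and 74.8 CPM in Top1 cKO cultures (log2 fold change −1.11), while its WT log2 fold change was −0.11, and this difference passed (adjusted p = 0.00246).

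Of 36 voltage-gated channel subunits 7 were lower and 1 higher, against 3.05% and 1.5% of all genes. The lower count was 2 to 7 over 9 fits with a block, being 2 after the filter on weakly expressed genes, in DESeq2, and without replicate number 1 or 2. Kcnip4, a Kv4 channel partner, went from 49.3, 41.9 and 31.6 CPM to 8.36, 13.6 and 11.8 CPM, and Cacna2d1, an auxiliary calcium channel subunit, from 257, 268 and 186 CPM to 118, 132 and 112 CPM. The higher member was Scn1a, the sodium channel Nav1.1 (chr2:66108838-66278897), at 143, 129 and 207 CPM in vehicle and 239, 224 and 345 CPM in topotecan libraries. All 3 topotecan libraries exceeded all vehicle libraries although the gene spans 170 kb, and the log2 fold change was 0.77 ± 0.10 (adjusted p = 1.93e-11 with the block). In WT it was −0.81, and the genotypes differed by 1.57 ± 0.17 (adjusted p = 1.74e-09). Among postsynaptic scaffolds 5 of 20 were lower and 0 higher, against 3.05% and 1.5% of all genes, and the median was 0.02. The count fell to 1 with the filter on weakly expressed genes or without replicate number 1, and to 2 in DESeq2 with the block or without number 2, where 1 was higher. Gphn, the gephyrin scaffold of inhibitory synapses, fell most of these (60.6, 55.2 and 45.6 CPM to 18.3, 25.2 and 25.8 CPM), and Dlgap1, Magi2, Cnksr2 and Dlg2 were the others. Among GABA-A receptor subunits Gabrb1 was lower (log2 fold change with the block −1.20). Of 15 projection neuron markers Slc17a6 was higher and Tubb3, neuronal tubulin, lower, against 1.5% and 3.05% of all genes. Neither call was made in the blocked fits after the filter on weakly expressed genes, on all 12 libraries, in DESeq2, or without replicate number 1 or 3. Of 14 interneuron markers 0 passed in the edgeR fit with the block or in DESeq2 with it, and 2 were lower at an unadjusted p of 0.05 without it.

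Lower and higher genes differed in length. The 375 lower genes with an annotated span had a median of 138 kb and 219 of them (58.4%) exceeded 100 kb. For the 202 higher genes with a span the median was 22.6 kb and 25 exceeded 100 kb, and for the whole set above 1 CPM it was 24.4 kb and 15.3%. The medians of all genes in a length class, called or not, follow.

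Up to 100 kb, class medians of the log2 fold change lay between 0.01 and 0.03. From 100 to 200 kb the median was −0.04 (1192 genes), from 200 to 500 kb −0.24 (646 genes) and over 500 kb −0.68 (182 genes). In the longest class 168 genes (92.3%) had a log2 fold change below 0 with the block, 75 (41.2%) were lower and 1 higher. In the class from 200 to 500 kb 73.7% were negative, 96 were lower (14.9%) and 3 higher, and from 100 to 200 kb 54.7% were negative. Replicate numbers 1, 2 and 3 gave medians of −0.83, −0.65 and −0.45 for the longest class and −0.27, −0.23 and −0.15 for the class below it. The sign was thus the same in each of the 3 numbers, with a spread between them.

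In the 6 libraries the median level of genes over 500 kb relative to shorter genes, on the log2(CPM + 1) scale, was 0.58, 0.67 and 0.09 in vehicle replicates 1, 2 and 3 and −0.44, 0.03 and −0.50 in topotecan libraries. Vehicle replicate 3 lay nearest to the topotecan libraries. With all genes over 100 kb the difference was −0.17 (exact permutation test, two-sided, p = 0.3, n = 3 against 3, the smallest possible p being 0.1). The smallest possible p for 3 pairs is 0.25, and this is the value the pairs gave.

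**Figure D2:**
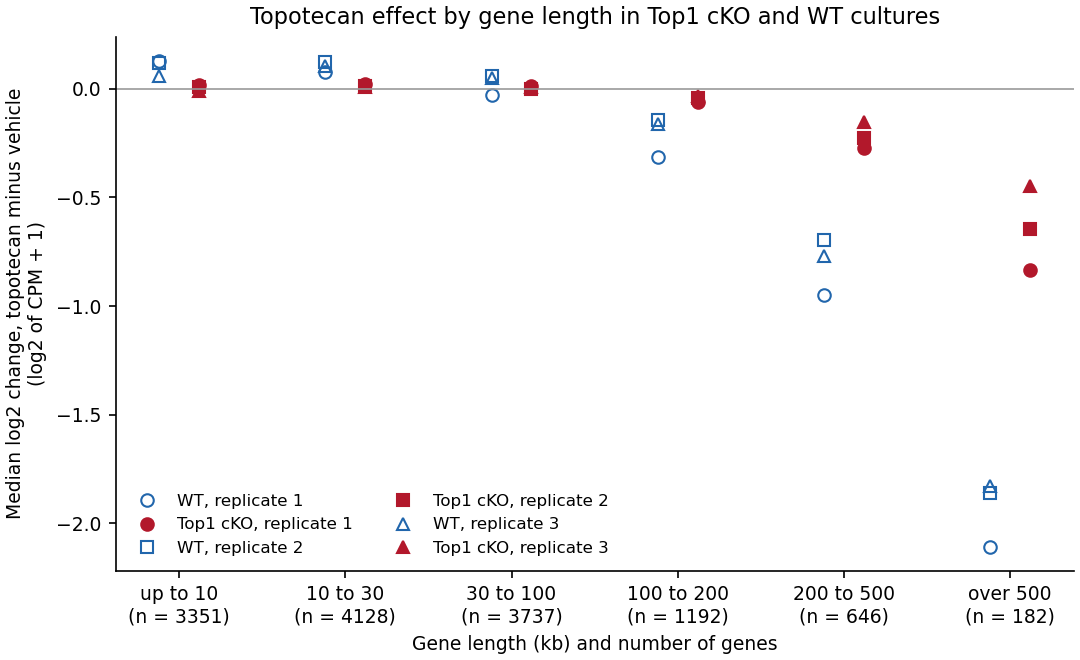
Median log2 change, topotecan minus vehicle, on the log2(CPM + 1) scale (vertical axis) for 6 classes of gene length in kb (horizontal axis, n is the number of genes), within each replicate number; filled red symbols are Top1 cKO and open blue symbols WT. The 3 Top1 cKO medians lie near 0 up to 200 kb and reach −0.83, −0.65 and −0.45 over 500 kb, where the WT medians are −2.11, −1.86 and −1.83.

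Many of the longest genes fell less than in WT. Their WT median was −2.15, with −2.11, −1.86 and −1.83 in the 3 numbers, and all 3 Top1 cKO medians lay above these. In the test of the difference 86 of the 182 genes over 500 kb had a higher (less negative) effect in Top1 cKO and 0 a lower one, against 4.27% and 2.68% of all genes with the block (0.697% and 0.0661% without it). Across these 182 genes the log2 fold changes of the 2 genotypes had r = 0.59, and the correlation with length within the class was rho = −0.27. These are descriptions across genes of libraries that share depth, read length and replicate numbers. For 150 of the 182 genes the Top1 cKO-Veh mean was under the WT-Veh mean, and relative to WT-Veh the medians on the log2(CPM + 1) scale were −0.54 for Top1 cKO-Veh, −1.07 for Top1 cKO-Topot and −1.92 for WT-Topot. For 113 genes (62.1%) the 4 group means followed that order, compared with 4.08% of genes of 100 kb or less.

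Nrg3, an epidermal growth factor family ligand of neurons (chr14:39182138-40286376), shows the pattern in a gene of 1104 kb. Its vehicle levels of 52.4, 51.1 and 39.1 CPM fell to 11.6, 13.3 and 15.7 CPM (log2 fold change with the block −1.81 ± 0.20), and its WT levels fell from a mean of 110 to 4.67 CPM. The genotypes differed by 2.69 ± 0.34 (adjusted p = 1.18e-07). Nkain2, which encodes a protein that interacts with the sodium pump, went from 53.2, 48.3 and 35.1 CPM to 7.17, 14.6 and 9.62 CPM, and Tenm1, a teneurin adhesion protein, from 29.7, 45.3 and 30.1 CPM to 9.16, 14.6 and 6.99 CPM. Npas3, a transcription factor, was among the genes whose effect was not shown to differ: it went from 20.3, 21.5 and 9.02 CPM to 2.79, 6.31 and 1.75 CPM, its WT log2 fold change was −2.64 and the difference of 0.47 ± 0.50 did not pass (adjusted p = 0.967).

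Some very long genes were not lower. Of the 182 genes over 500 kb, 14 had no negative log2 fold change, among them Auts2, Camta1, Rora, Sema6d and Slit3. Fgf13, a sodium channel partner, was the 1 higher gene of this class, at 239, 215 and 343 CPM against 314, 288 and 380 CPM, with groups that overlapped (log2 fold change with the block 0.33 ± 0.09, adjusted p = 0.00969). Med13l, Mylk and Rere were the 3 higher genes from 200 to 500 kb. The genes Fgf13, Med13l, Mylk and Rere, and those without a negative value, are named here after their values were seen.

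Genes that topotecan lowered in WT cultures were then followed in the Top1 cKO libraries, which share no sample with the WT comparison. In the WT fit without the block these were 488 genes, 484 of which had at least 1 CPM (3.55%). Of them, 397 (81.4%) were below 0 in the blocked Top1 cKO fit, 152 were lower and 12 higher. Over all genes averaging 1 CPM or more, 49.9% were below 0 in that fit, 3.05% were lower and 1.5% higher. In the blocked fit those over 100 kb (366) had a median of −0.41, 89.6% negative, 143 lower and 0 higher, whereas those of 100 kb or less (116) had a median of −0.02, 54.3% negative, 7 lower and 12 higher. For the 366 long genes the median ratio of the Top1 cKO to the WT log2 fold change was 0.239, with quartiles of 0.104 and 0.402. Since these genes were picked for their WT values, the ratio is a description. Of the 163 genes that were higher in WT-Topot without the block (1.19%), 11 were higher and 7 lower in Top1 cKO. The shares over all genes were 1.5% and 3.05%, and the median of the 163 was 0.03 in the blocked fit. In the other direction, 222 of the 415 genes lower in Top1 cKO were also lower in WT with the block (53.5% of the 415 and 18.6% of 1195; 8.71% of genes were lower in WT with the block), and 45 of the 205 higher genes were also higher (22.0% of the 205 and 5.81% of 775; 5.62% were higher). Calls in opposite directions were also made: 28 of the 205 higher genes were lower in WT with the block, and 24 of the 415 lower genes were higher.

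**Figure D3:**
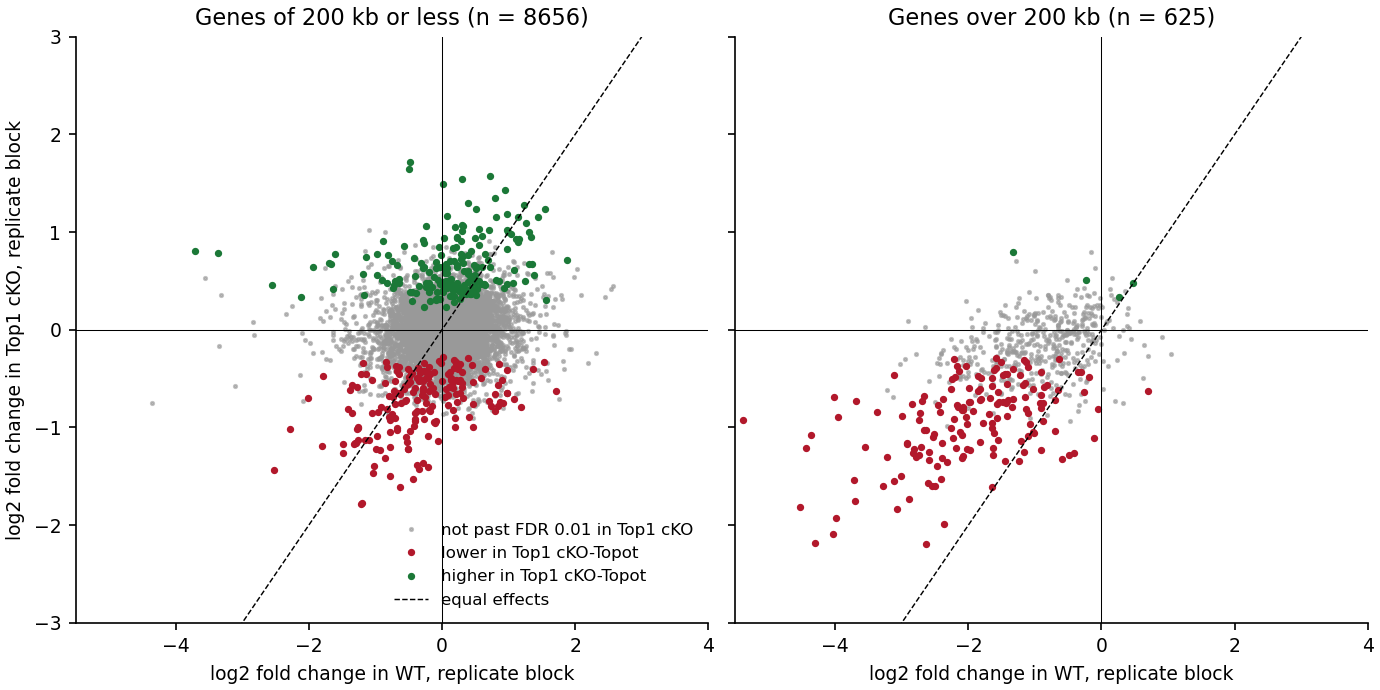
Log2 fold change of topotecan against vehicle in WT (horizontal axis) and Top1 cKO (vertical axis), both with the replicate block, for genes averaging 10 CPM or more in the Top1 cKO libraries with a span of 200 kb or less (left, n = 8656) or over 200 kb (right, n = 625). Red points were lower and green points higher in Top1 cKO-Topot at FDR 0.01, the dashed line marks equal effects, and most long genes lie left of 0 and above that line.

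Most of the listed astrocyte markers were lower in Top1 cKO-Topot, and several of them are short. All 15 listed markers had at least 1 CPM and none was at 0. With the block 9 were lower and 0 higher, against 3.05% and 1.5% of all genes. All 15 had a negative log2 fold change, which held for 49.9% of all genes. The median was −1.19, and within replicate numbers 1, 2 and 3 it was −1.36, −0.69 and −0.60. It was −0.67 without vehicle library 1, −0.71 without topotecan library 3 and −1.50 without vehicle library 3, and without the block 0 markers passed on all 6 libraries, 1 without vehicle library 1 and 8 without vehicle library 3. Their summed level was 3121 to 7797 CPM in the vehicle libraries (median 4772) and 1990 to 4029 CPM in the topotecan libraries (median 3279). For none of the 15 did the groups separate when the replicate number was disregarded, while they did for 11.7% of all genes. In bulk RNA, fewer astrocytes and less of these mRNAs per astrocyte cannot be told apart.

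Gfap, the intermediate filament of astrocytes (chr11:102748650-102762226), was at 1233, 358 and 431 CPM in vehicle replicates 1, 2 and 3 and at 425, 184 and 117 CPM in topotecan libraries. Each number showed a fall, and the log2 fold change with the block was −1.43 ± 0.09 (adjusted p = 8.39e-42), against −1.47 ± 0.43 (adjusted p = 0.495) without it. Slc1a3, the glutamate transporter GLAST, went from 987, 544 and 329 CPM to 331, 338 and 133 CPM. Slc1a2, the transporter GLT-1 and the most abundant gene of the list, went from 2462, 2346 and 1380 CPM to 1390, 1486 and 1062 CPM. Slc4a4, a sodium bicarbonate transporter, fell most among the abundant members, from 243, 192 and 61.6 CPM to 36.2, 79.4 and 12.2 CPM, and spans 353 kb. Ntsr2, a neurotensin receptor, fell more at a lower level, from 19.6, 8.01 and 1.503 CPM to 1.19, 0.332 and 1.75 CPM. In replicate number 3 Ntsr2 was not lower with topotecan. Vehicle library 3 and topotecan library 1 held 3 counts of it, so the size of its fall is imprecise. The water channel gene Aqp4 and the connexin gene Gja1 were also lower (log2 fold changes with the block −1.19 and −1.16), as was Fgfr3. Aldoc, Sox9, Glul and S100b, 4 other markers, had log2 fold changes of −0.06, −0.10, −0.14 and −0.17 and did not pass.

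In WT the astrocyte median was −0.97, with −1.38, −1.28 and −0.32 in the 3 numbers. With the block 8 markers were lower there, against 8.71% of all genes. The genotypes differed for 2 of the 15 markers, Gfap and Slc1a2, both with the larger fall in WT (adjusted p = 3.38e-05 and 2.18e-05). Over all genes, 4.27% had a higher effect in Top1 cKO with the block. Over 9 fits with a block, 5 to 10 astrocyte markers were lower and 0 higher. Of the 94 genes lower in all 6 blocked fits on all replicate numbers, 75 exceeded 100 kb and 19 did not. Among those 19, named after their values were seen, were Gfap and Slc1a3 of the list and also Ndrg2 (289, 177 and 103 CPM to 127, 99.96 and 61.2 CPM), Fam107a, Slc38a3, Sparcl1 and Cst3. Fam107a (log2 fold change −1.36, in WT −0.29) and Cst3 (−0.51, in WT 0.13) fell more in Top1 cKO. These differences passed in the interaction test with the block (adjusted p = 0.000954 and 0.00169), and those of Ndrg2, Slc38a3 and Sparcl1 did not. The part of these genes in the other results was not tested.

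Markers of other non-neuronal cells were also examined, with no test of their difference from astrocyte markers. Over all genes 3.05% were lower and 1.5% higher with the block, the shares to set beside the counts below. Microglial markers summed to 4.01 to 10.3 CPM in vehicle and 3.50 to 10.96 CPM in topotecan libraries, 2 of 12 reached 1 CPM, and Tyrobp was at 0. Of 12 oligodendrocyte lineage markers 9 reached 1 CPM and Gpr17 and Mag were at 0. Cnp and Olig1 were among the markers higher with the block, and the count was 0 to 3 over the blocked fits. Cnp, a myelin enzyme, went from 41.1, 15.8 and 12.5 CPM to 55.8, 32.9 and 38.9 CPM and was higher in each number, whereas Olig1, a transcription factor of the lineage, moved the other way in number 3 (41.8, 82.0 and 72.1 CPM to 83.2, 172 and 44.2 CPM), and its sign changed under 1 alternative. Their list summed to 156 to 212 CPM in vehicle and 178 to 332 CPM in topotecan libraries. Among endothelial and mural markers (6 of 12 with at least 1 CPM, 31.1 to 98.9 and 25.2 to 69.3 CPM) the median was −0.77, from −1.52 without topotecan library 1 to 0.20 without vehicle library 1. Of these, Col1a2, a collagen, was lower (30.5, 1.83 and 14.5 CPM to 11.9, 0.664 and 4.81 CPM) and Rgs5, a pericyte gene, higher.

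Nes and Vim, intermediate filaments of progenitors and of reactive or immature glia, were higher. Nes went from 80.9, 57.5 and 51.1 CPM to 174, 200 and 84.8 CPM (log2 fold change with the block 1.28 ± 0.13, adjusted p = 6.51e-18), with every topotecan library above every vehicle library. Vim went from 425, 190 and 145 CPM to 678, 409 and 303 CPM and rose within each number (adjusted p = 2.66e-20). In WT both also rose (1.23 and 1.34), and the difference between genotypes did not pass for either (adjusted p = 1 and 0.214). Of 15 progenitor and proliferation markers 10 reached 1 CPM. Nes and Vim were the 2 higher members and 0 were lower, against 1.5% and 3.05% of all genes. The mitotic genes Top2a, Ccnb1, Cdk1, Aurkb and Bub1 were under 1 CPM.

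Some p53 target genes were higher in Top1 cKO-Topot, depending on the fit. p53 is the transcription factor that DNA damage stabilises, and its targets stop the cell cycle or promote cell death. Of 30 targets in the table, 12 were higher and 0 lower with the block, against 1.5% and 3.05% of all genes. The median was 0.43, with 0.56, 0.34 and 0.43 in the 3 numbers, and 6 genes had a negative log2 fold change with the block. In every number 18 genes were positive (18.7% of all genes were). The groups did not overlap for 13 of the 30, against 11.7% of all genes. The list was drawn up after genes of this kind had been seen higher in these libraries, so its count is not independent evidence of its direction. The count was 3 to 12 over 9 blocked fits, with 3 in DESeq2. In the quasi-likelihood fit without a block it was 0, where 15 had an unadjusted p under 0.05, while DESeq2 and edgeR's exact test without a block gave 4 and 3. Leaving out vehicle library 1 or 3 gave 2 or 3 without a block.

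Cdkn1a, the cyclin kinase inhibitor p21 (chr17:29227924-29237667), went from 272, 246 and 151 CPM to 659, 346 and 510 CPM, with no overlap. Its log2 fold change was 1.16 ± 0.09 with the block (adjusted p = 4.9e-27) and 1.19 ± 0.23 without (adjusted p = 0.0805). In WT it was 0.08, at means of 228 CPM (vehicle) and 234 CPM (topotecan), and the genotypes differed by 1.16 ± 0.21 (adjusted p = 0.000115). Phlda3, an inhibitor of AKT, went from 95.4, 76.0 and 80.2 CPM to 219, 126 and 174 CPM, and Trp53inp1, which acts in p53-dependent cell death, from 104, 120 and 99.2 CPM to 210, 170 and 196 CPM. Ccng1 (cyclin G1) went from 500, 427 and 427 CPM to 776, 509 and 863 CPM. Pmaip1 (Noxa), Perp, Aen, Ei24, Zmat3, Psrc1, Gtse1 and Ckap2 were the other higher members. Phlda3, Trp53inp1 and Pmaip1 were called in all 6 blocked fits on all replicate numbers, whereas Cdkn1a and Ccng1 were not.

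Phlda3, Trp53inp1 and Ccng1 also rose in WT (log2 fold changes 0.71, 0.98 and 0.60), and their differences between genotypes did not pass (adjusted p = 0.582, 1 and 1). In WT 6 targets were higher and 1 lower with the block, against 5.62% and 8.71% of all genes. The interaction passed with the block for 2 of 30, Cdkn1a and Plk3, both with the higher effect in Top1 cKO, against 4.27% of all genes. Plk3 was unlike Cdkn1a in that it fell in WT (−2.06) and had −0.10 in Top1 cKO. Mdm2 and Bax, a p53 ubiquitin ligase and a cell death effector, had log2 fold changes of 0.44 and 0.51 and did not pass (adjusted p = 0.0385 and 0.0832).

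Immediate early genes (IEGs), transcription factors and effectors switched on by neuronal activity, were higher or did not pass in the fit with the block. All 32 had at least 1 CPM. With the block 0 were lower and 11 higher, against 3.05% and 1.5% of all genes (also 0 and 11 at an unadjusted p of 0.05 without it). The groups did not overlap for 5 of the 32, against 11.7% of all genes, and the median was 0.44. It was 0.20 without topotecan library 1 and 0.30 without vehicle library 3. Replicate numbers 1, 2 and 3 gave medians of 0.41, −0.03 and 0.72, so the median of number 2 was not above 0. The 11 calls rest on the fit: with weakly expressed genes filtered, in DESeq2, or without number 1, 0 were higher, and without number 3 there were 4 higher and 1 lower. In WT the median was −1.35, and the drug effect was higher in Top1 cKO for 18 of 32 genes and lower for 0 with the block (4.27% and 2.68% of all genes), and for 10 and 0 without it (0.697% and 0.0661%).

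Nr4a1, a nuclear receptor, was at 69.6, 107 and 61.1 CPM in vehicle and 172, 103 and 140 CPM in topotecan libraries, and Arc, which acts in AMPA receptor endocytosis, at 94.2, 101 and 82.2 CPM and 244, 91.0 and 177 CPM. In both, replicate number 2 had a slightly lower value with topotecan while the others rose. Egr4, a zinc finger factor, went from 63.7, 63.4 and 50.6 CPM to 116, 80.7 and 82.6 CPM and Btg2, an antiproliferative gene that is also a p53 target, from 56.7, 62.1 and 45.6 CPM to 87.6, 70.4 and 124 CPM, both without overlap. Fos was at 75.9, 86.6 and 32.1 CPM and then 86.0, 53.1 and 64.7 CPM (log2 fold change with the block 0.08, adjusted p = 1) against −2.84 in WT. For Nr4a1 the genotypes differed by 4.18 ± 0.32 (adjusted p = 3.77e-13).

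The promoters of Nr4a1, Egr4 and Btg2 are shown because these IEGs were called together. Many IEG promoters carry the cyclic AMP response element, TGACGTCA, or its core TGACG, searched on both strands in the 250 bases before the start in RefSeq (GRCm38.p6). The core was found in 18 of 25 IEG promoters with an entry (72%), in 8 of 23 of the p53 list (34.8%) and in 23.1% of 16626 genes. The whole element, which contains the core, was in 3 of 25 (12%) and 2.27%. Capitals mark the matches, and a match is not evidence of binding:

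Nr4a1 chr15:101266596-101266845, plus strand: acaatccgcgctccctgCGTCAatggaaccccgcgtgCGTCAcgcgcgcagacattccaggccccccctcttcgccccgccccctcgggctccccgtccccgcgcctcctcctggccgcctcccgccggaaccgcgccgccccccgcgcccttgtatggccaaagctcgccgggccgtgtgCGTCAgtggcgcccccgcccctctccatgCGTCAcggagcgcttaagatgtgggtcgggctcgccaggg

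Egr4 chr6:85513590-85513839, minus strand: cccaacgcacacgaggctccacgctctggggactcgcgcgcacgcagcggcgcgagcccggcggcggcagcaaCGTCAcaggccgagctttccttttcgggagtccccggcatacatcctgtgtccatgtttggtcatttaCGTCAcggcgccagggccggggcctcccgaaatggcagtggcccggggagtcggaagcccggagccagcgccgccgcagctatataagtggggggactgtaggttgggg

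Btg2 chr1:134079156-134079405, minus strand: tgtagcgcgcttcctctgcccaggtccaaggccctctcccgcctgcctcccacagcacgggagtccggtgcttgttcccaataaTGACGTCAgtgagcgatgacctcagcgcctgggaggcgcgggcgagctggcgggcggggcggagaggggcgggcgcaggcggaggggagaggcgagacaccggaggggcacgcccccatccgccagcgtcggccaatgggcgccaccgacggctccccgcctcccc

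Other groups showed few or no calls. Over all genes 3.05% were lower and 1.5% higher in Top1 cKO with the block, the shares to set beside the counts below. Of 30 amino acid response genes (ATF4 targets) 0 passed in Top1 cKO in either direction, with a median of −0.06 (−0.19 to 0.07 without 1 library) and 0 in DESeq2 with the block (1 lower and 1 higher without replicate number 2), 1 being lower at an unadjusted p of 0.05 without it, whereas in WT the median was −1.18 and 22 were lower. The 22 are from the fit with the block, in which 8.71% of all genes were lower in WT. The drug effect was higher in Top1 cKO for 13 of the 30 and lower for 0 with the block (4.27% and 2.68% of all genes). Without it the counts were 2 and 0 (0.697% and 0.0661%). Atf4 itself was at 273, 241 and 305 CPM in vehicle and 358, 255 and 363 CPM in topotecan libraries (adjusted p = 0.101 with the block). Of 20 cholesterol synthesis genes Nsdhl was lower (31.3, 13.1 and 22.5 CPM to 7.57, 6.64 and 13.1 CPM) and the median was −0.18, against −1.02 in WT. That median ran from −0.63 without topotecan library 3 to 0.08 without topotecan library 2, and the call was lost after the filter on weakly expressed genes, in DESeq2 with the block and without replicate number 1, whereas 5 genes were lower without number 3. For 40 ribosomal protein genes, 38 oxidative phosphorylation genes and 12 heat shock genes 0 passed in the edgeR fit with the block or in DESeq2 with it, with medians of 0.01, −0.02 and 0.03 (−0.16 to 0.31, −0.26 to 0.20 and −0.01 to 0.19 without 1 library), and at an unadjusted p of 0.05 without it 1 heat shock gene was higher. Hexim1 and Polr2a were the 2 higher of 25 elongation and pause-release genes (0 to 3 over the blocked fits), and Calr was the 1 lower of 18 endoplasmic reticulum genes (0 to 1). Of 25 neuronal cytoskeleton genes 3 were lower (Mapt, Tubb3 and Ank2, 0 to 3 over the blocked fits), and of 14 interferon-stimulated genes with at least 1 CPM 0 passed in either tool or at an unadjusted p of 0.05, with a median of 0.41 that was 0.18 without topotecan library 1 and 0.69 without vehicle library 1. Neuropeptide and secretory granule genes (21) had 2 lower, Pcsk2 and Penk, and 1 higher, Scg2 (0 to 5 and 0 to 2 over the blocked fits).

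**Figure D4:**
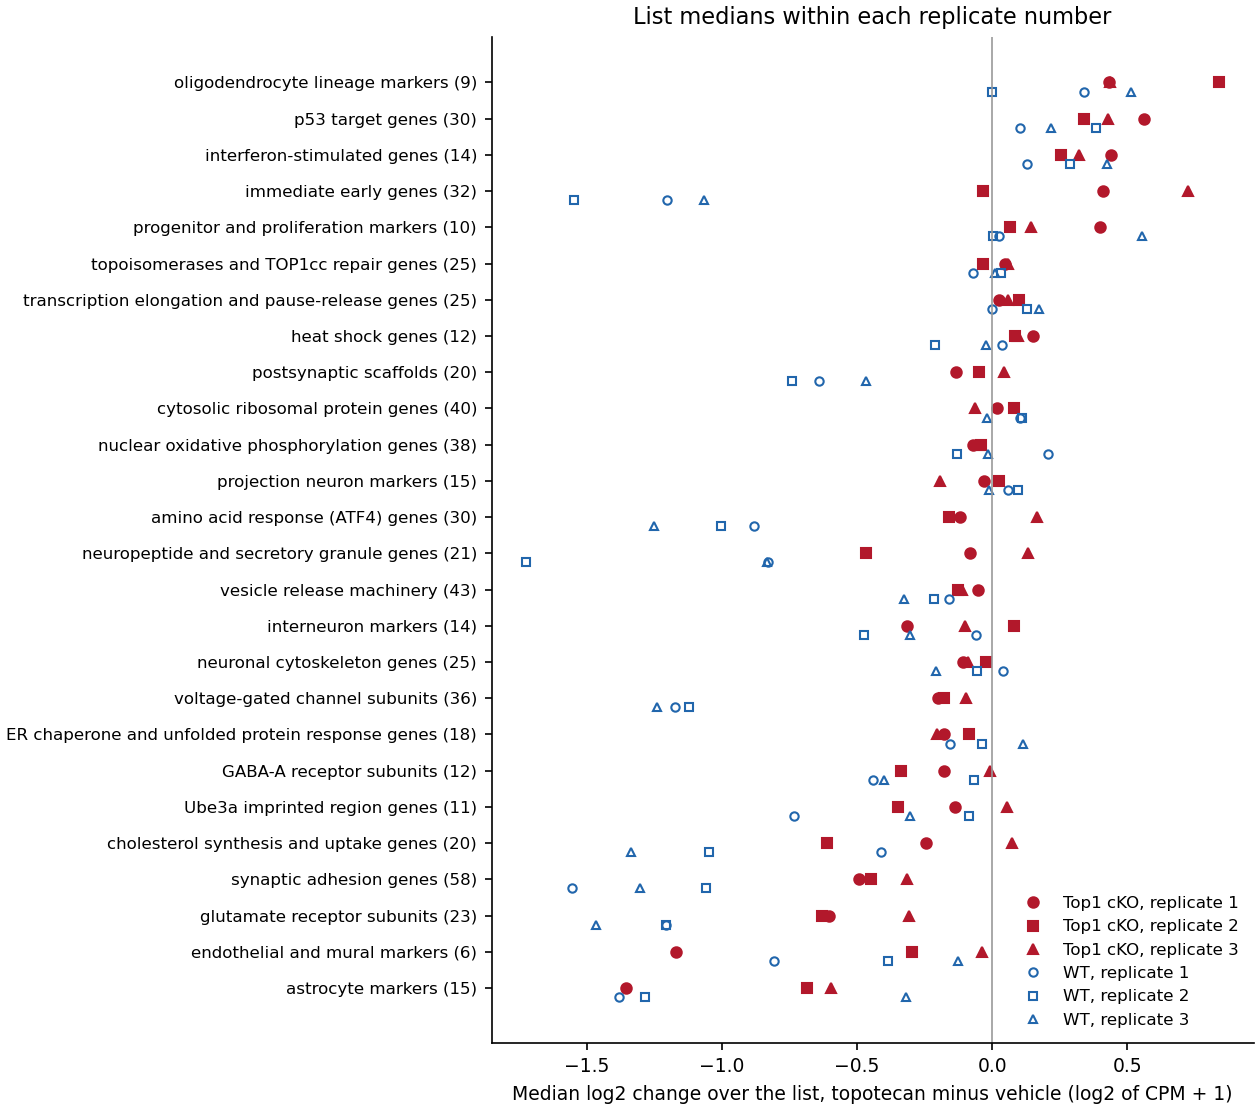
Median log2 change over each gene list, topotecan minus vehicle on the log2(CPM + 1) scale (horizontal axis), within each replicate number in Top1 cKO (filled red) and WT (open blue); the number of genes with at least 1 CPM stands in brackets. Astrocyte markers lie lowest in Top1 cKO (−1.36, −0.69 and −0.60), p53 targets lie above 0 in each number (0.56, 0.34 and 0.43), and the 3 values of IEGs (0.41, −0.03 and 0.72) are well above those of WT.

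Topoisomerases and TOP1cc repair genes had 1 lower and 0 higher members (0 to 1 lower over 9 fits with a block). Over all genes 3.05% were lower and 1.5% higher. Of 25 with at least 1 CPM, Top2b was lower, from 130, 179 and 123 CPM to 90.4, 121 and 83.1 CPM without overlap (log2 fold change with the block −0.54 ± 0.12, adjusted p = 0.000392). In WT it was 0.30, and the difference passed (adjusted p = 0.00156). Top1mt, the mitochondrial topoisomerase, was at 7.82, 7.56 and 2.004 CPM in vehicle and 2.39, 2.32 and 0.874 CPM in topotecan libraries (log2 fold change with the block −1.60 ± 0.49, adjusted p = 0.0345). In WT it rose by 2.03 on the log2 scale, and the genotypes differed by −3.68 ± 0.64 (adjusted p = 5.22e-05, and 0.0184 without the block). Ube3a, whose paternal copy neurons silence, was at 227, 314 and 226 CPM in vehicle and 206, 246 and 194 CPM in topotecan libraries (log2 fold change with the block −0.23 ± 0.10, adjusted p = 0.218). In WT it rose (0.57 with the block), and the genotypes differed by −0.81 (adjusted p = 0.000594). Reads are not split by allele in the table.

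Calls of H2-Q1 and Srp54b, both among the 10 largest falls with the block, are uncertain because near-identical copies of these genes exist and the counting of shared reads is not stated. Srp54b was at 196, 19.9 and 98.2 CPM in vehicle and 6.37, 16.3 and 57.7 CPM in topotecan libraries, so the difference was largest in replicate number 1. Lsamp, an IgLON, was the other gene of these 10 not yet described, and went from 27.4, 27.0 and 10.5 CPM to 3.58, 9.63 and 3.50 CPM. Of the 10 largest rises, Scn9a (2.74, 8.01 and 10.5 CPM to 27.5, 15.9 and 28.0 CPM), Gucy2g, Gtse1, Ifitm3, Neat1, Cdc42bpg, Sept4, C130083M11Rik, Nes and Gpd1, only Nes and Gpd1 were called in all 6 blocked fits on all replicate numbers.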

How the data were processed

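RNA-seq libraries of 12 cortical cultures, 3 in each of 4 groups, were analysed, and the 6 Top1 cKO libraries made the comparison. The authors prepared polyA libraries (TruSeq), sequenced them paired-end, cleaned the reads (TagDust), mapped those to mm9 (TopHat, default settings) and dropped rRNA reads. They deposited raw counts over RefSeq exons per gene symbol, without normalization. The counter, its strand setting and all versions are not given in the sources used here, so reads of overlapping, antisense or near-identical genes may be shared.

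From the counts, CPM were scaled by TMM over all 12 libraries. Top1 cKO-Topot was fitted against Top1 cKO-Veh with edgeR 4.0.16 (glmQLFit, glmQLFTest, R 4.3.3), without a gene filter, with Benjamini-Hochberg adjustment over 23893 genes and an FDR of 0.01. The interaction with genotype used all 12 libraries. DESeq2 1.42.0 and other alternatives are given in the closing section. The replicate numbers of the labels pair the libraries: deviations from group means correlated at 0.261 to 0.485 over 18 pairs with the same number and −0.384 to −0.0494 between numbers. Counts of libraries within a group differed beyond sampling noise (dispersion index 6.44 to 10.9, noise alone giving 1). Changes within a number used log2(CPM + 1).

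Lengths are GENCODE vM1 spans (NCBIM37): 21013 symbols matched directly, 1042 by synonym or identifier and 1838 did not, and 132 symbols had their records joined. Genes were named by rule: Top1, genes past the FDR without the block, the 10 largest falls and 10 largest rises with it (mean of at least 10 CPM, same sign in 3 numbers), up to 4 members per list by p, and 6 genes with opposite effects in the genotypes; other members are named as called members of their list. The 27 lists, the members and the tests were chosen with earlier results of these data known. Scripts were tested on simulated data. At 3 counts the depth allows 0.687 to 1.503 CPM, and it sets the precision of genes near 1 CPM by counting error only. Some genes are not reported here.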

Additional observations from a re-analysis of the deposited data

Results flagged for a closer look

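Several genes responded to topotecan differently in Top1 cKO and WT cultures, by a test of that difference. Without the block 95 genes had a higher and 9 a lower log2 fold change in Top1 cKO than in WT. The 6 named genes with the smallest p among those whose fitted effects had opposite signs follow, with the difference between genotypes from the fit with the block. For Nr4a1 it was 4.18 (adjusted p = 3.77e-13, and 9.83e-05 without the block), with mean WT levels of 89.9 and 8.97 CPM. For Bdnf, a neurotrophin, it was 3.75 (adjusted p = 1.33e-13): WT means were 282 and 26.9 CPM, while Top1 cKO libraries had 158, 145 and 79.2 CPM with vehicle and 180, 129 and 177 CPM with topotecan. For Atf4 it was 1.89 (adjusted p = 2.1e-11), with WT means of 513 and 163 CPM. For Tfrc, the transferrin receptor, it was 1.53 (adjusted p = 1.94e-11); its Top1 cKO levels were 601, 396 and 703 CPM and then 685, 540 and 933 CPM. For Wdr6 it was −1.86 (adjusted p = 6.75e-13), with WT means of 328 and 955 CPM and Top1 cKO means of 562 and 452 CPM. For Hap1, a huntingtin partner, it was −1.94 (adjusted p = 7.6e-12), with WT means of 105 and 378 CPM, while its own Top1 cKO change was −0.06 (adjusted p = 1). Of the 6, Nr4a1, Tfrc and Wdr6 also passed in Top1 cKO with the block, and for Bdnf, Atf4 and Hap1 the Top1 cKO change itself did not pass.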

How the results depend on the processing

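Of the settings tried, the replicate block moved the counts most. Genes lower and higher in Top1 cKO-Topot numbered 2 and 0 without it, 415 and 205 with it, 425 and 206 with the block and RLE size factors, 387 and 209 with the block and total counts, 223 and 54 with the block on all 12 libraries, 118 and 27 with the block after filterByExpr, and 105 and 25 in DESeq2 with the block. All 6 of these blocked fits shared 94 lower and 20 higher genes. Blocked fits that left out number 1, 2 or 3 gave 115, 246 or 426 lower and 31, 118 or 192 higher genes. Without a block there were 44 and 9 in DESeq2, 35 and 5 in edgeR's exact test, 7 lower on all 12 libraries, 0 after filterByExpr, and 38 and 6 at an FDR of 0.1, which with the block gave 781 and 490. Leaving out 1 library gave 1 to 117 lower and 0 to 15 higher genes, with 117 and 15 if vehicle library 3 was dropped, 33 and 10 for vehicle library 1, and 4 and 2 for topotecan library 3. Over every fit that left something out the range was 1 to 426 lower and 0 to 192 higher.

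For the interaction, 9 lower and 95 higher became 365 and 583 with the block, 221 and 458 with the block and filterByExpr, 82 and 275 in DESeq2, and 58 higher after filterByExpr. Leaving out 1 library gave 2 to 24 lower and 48 to 123 higher, and blocked fits that left out number 1, 2 or 3 gave 175, 297 or 172 lower and 382, 607 or 340 higher. WT counts were 488 and 163, with the block 1195 and 775, 98 higher after filterByExpr, and 423 to 736 and 110 to 291 without 1 library. The long gene shift of −0.17 ranged from −0.29 to −0.10 without 1 library. The cause of these shifts was not tested. No result past its threshold in the fit without the block reversed, and among Top1 cKO genes only Cadm2 and Syt1 had passed there. This does not cover calls made only with the block. At most 17 of 123 named genes, Top1 and Olig1 among them, changed sign under at least 1 of 21 alternatives. That count appears to include genes removed by a filter, which have no sign there. At 1991007 to 4583777 counts, genes near 1 CPM limit the precision.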

Other observations

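Some further genes called higher in all 6 blocked fits on all replicate numbers belong to none of the groups above, and were chosen after their values were seen. Slc5a3, a sodium myo-inositol transporter, went from 112, 104 and 92.2 CPM in Top1 cKO-Veh to 236, 208 and 174 CPM in Top1 cKO-Topot without overlap (log2 fold change 1.01 ± 0.11, adjusted p = 0.0382 without the block and 1.02e-15 with it). Nfat5, a transcription factor of the response to osmotic stress, went from 135, 141 and 133 CPM to 235, 236 and 182 CPM, and Slc38a2, a neutral amino acid transporter, from 82.5, 50.2 and 73.2 CPM to 165, 93.0 and 126 CPM. In WT, Slc5a3 and Nfat5 had log2 fold changes of 0.30 and −0.32 that did not pass, Slc38a2 fell (−0.88), and the genotypes differed for all 3 (adjusted p = 0.00773, 5.12e-05 and 5.45e-10). Gpd1, which makes glycerol 3-phosphate, went from 24.6, 19.2 and 15.5 CPM to 68.9, 46.5 and 25.8 CPM and rose in WT too (1.55).

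Scn9a lies next to Scn1a (chr2:66318137-66473009), and both were higher in every topotecan library than in any vehicle library of the Top1 cKO groups. Since strand and the treatment of shared reads are not stated, the table does not say whether reads were divided between them.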
